A study of Homo sapiens with 4 samples.

Results

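Kinesins are motor proteins that use ATP to move along microtubules or to take microtubules apart. The genes described here are every row of the expression table whose symbol begins with KIF followed by a digit or a C, together with the light chain genes KLC1 to KLC4. This rule found 46 of the 23576 rows. The 12 genes KIF2C, KIF4A, KIF11, KIF14, KIF15, KIF18A, KIF18B, KIF20A, KIF20B, KIF22, KIF23 and KIFC1, whose motors act in cell division, formed the mitotic class. The other 34 rows, 30 motors and 4 light chains, formed the comparison class. The classes follow the rule, and a place in the comparison class does not exclude a role in cell division. The rule itself uses names and known functions, but these genes were chosen for description with earlier results of these data known.

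RNA was sequenced from SH-SY5Y, an established human neuroblastoma line of sympathoadrenal origin, in 4 libraries. Cells of the differentiated group were taken at day 16. They had spent 7 days with retinoic acid at 10 µM, then 9 days with brain-derived neurotrophic factor at 20 ng/mL in medium without serum. Undifferentiated cells were collected on day 0 and had received neither agent. Each group had 2 libraries, and the authors' deposited table gives 1 value per gene and group, so no spread between libraries can be shown. The unit is FPKM, the count of sequenced fragments relative to transcript length and to all mapped fragments.

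In a dividing cell, mitotic kinesins separate the spindle poles, position chromosomes and organise the midzone where the daughter cells part. In a neuron, transport kinesins carry vesicles, mitochondria and RNA from the cell body into axons and dendrites, and some kinesins set the length of microtubules. Several families contain members of both kinds.

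A fold change is the log2 ratio of differentiated over undifferentiated FPKM. Its standard error was derived here as the size of the fold change over the size of the authors' test statistic. A gene was called higher or lower when its q-value in the authors' deposited table was below 0.05. How the authors' test set the variance behind these q-values is not given in the sources used here. Any spread between libraries may be technical, since the labels do not say whether the libraries of a group came from separate cultures. The fold changes had no centre at 0. For the 11169 genes with a usable error and a mean FPKM of 1 or more, their median was -0.62 (quartiles -0.96 and -0.23), and 84.0% lay under 0. A second comparison set each gene against this median gene by a normal test on the same standard errors, with Benjamini-Hochberg adjustment over all 11169 genes, and a gene was called above or below it where the adjusted p was under 0.05. Among the 11200 genes tested by the authors at that level, 31.4% were called lower and 2.20% higher. Relative to the median gene, 4.56% lay below and 5.64% above. Both groups expressed a sympathoadrenal marker of the line, with HAND2 at 136 FPKM in differentiated and 205 FPKM in undifferentiated cells. The noradrenergic marker DBH was called lower. The summed level of 7 neuronal markers was 1069 FPKM in differentiated and 1094 FPKM in undifferentiated cells. Of these, SNAP25 was called higher in the authors' deposited table (log2 0.75, q = 0.0431), and 3 of 7 (GAP43, SNAP25 and STMN2) were above the median gene. Glial and Schwann cell markers summed to 3.62 and 4.75 FPKM and fibroblast markers to 29.9 and 39.5 FPKM in the same order. LUM held most of the differentiated fibroblast sum, with 17.95 FPKM in differentiated and 12.5 FPKM in undifferentiated cells, and was above the median gene. DCN, THY1 and PDGFRB were called lower by the authors, and the collagen gene COL1A1 had 0.132 and 0.189 FPKM in the same order. The part of these markers in the results was not tested.

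Of the 46 genes, 37 had a mean of at least 1 FPKM, and all of these were tested by the authors. The 9 below that level all belonged to the comparison class and ranged from 0 to 0.525 FPKM in differentiated cells and from 0 to 0.637 FPKM in undifferentiated cells. KLC3 and KIF21B were the highest of them. KIF17, KIF21B and KLC3 were tested there without being called, and KIF2B, KIF4B, KIF6, KIF12, KIF19 and KIF25 were not tested. KIF7, KIF9 and KIF24 share their listed loci with other genes, so their values are uncertain. KIF4B is a copy of KIF4A without introns, and it was listed at 0.0296 FPKM in differentiated cells and at 0 in undifferentiated cells.

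The mitotic class was lower in differentiated cells throughout. The authors' deposited table called 11 of 12 mitotic kinesins lower and none higher, where 31.4% of all tested genes were called lower. Against the median gene 8 of 12 lay below and none above, where 4.56% of all genes lay below. With equal summed FPKM of all rows in place of the median gene, 3 of 12 lay below. No share of all genes is given for that scaling. Their log2 fold changes lay between -1.70 and -1.21 with a median of -1.50, against -0.62 for all genes. Each of the 12 fold changes was negative in the authors' deposited table and stayed negative with the median gene set to 0, with equal summed FPKM and after quantile normalization. Differentiated cells thus held between 30.8% (KIF20A) and 43.1% (KIF2C) of the undifferentiated FPKM.

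KIF11 and KIF15, which build the bipolar spindle, had the most negative fold changes in the mitotic class after KIF20A. The standard errors of these genes exceed the gaps between their fold changes, so the order is uncertain. KIF11, which pushes the spindle poles apart, is listed at chromosome 10, 94352825 to 94415152 (hg19). It had 8.73 FPKM in differentiated cells and 28.1 FPKM in undifferentiated cells in the authors' deposited table (log2 -1.69, SE 0.261, q = 9.60e-09). KIF15, which can stand in for KIF11, had 6.93 FPKM in differentiated and 21.7 FPKM in undifferentiated cells in the authors' deposited table (log2 -1.65, SE 0.266, q = 4.31e-08). Both were below the median gene (adjusted p of 0.00129 for KIF11 and 0.00284 for KIF15). KIFC1, a minus-end motor that gathers spindle poles, had 1.30 and 3.06 FPKM in differentiated and undifferentiated cells. Its log2 fold change of -1.24 (SE 0.525) was not called in the authors' deposited table (q = 0.0585). The KIFC1 row carries a locus on a haplotype contig of chromosome 6, and fragments shared with the copy on the main chromosome make its value uncertain.

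Kinesins that act on chromosomes and kinetochores fell too. KIF4A, a chromosome-bound motor that also shapes the spindle midzone, had 5.88 FPKM in differentiated and 17.1 FPKM in undifferentiated cells in the authors' deposited table (log2 -1.54, q = 1.29e-06). KIF22, which pushes chromosome arms away from the poles, had 12.2 FPKM in differentiated and 34.0 FPKM in undifferentiated cells in the authors' deposited table (log2 -1.48, q = 2.34e-05). KIF18A, which damps chromosome movements at the metaphase plate, had 5.83 FPKM in differentiated and 16.8 FPKM in undifferentiated cells in the authors' deposited table (log2 -1.53, q = 1.34e-05). These 3 also lay below the median gene (adjusted p of 0.0146, 0.0471 and 0.0336). KIF18B, a relative of KIF18A that shortens astral microtubules, had 1.27 and 3.50 FPKM in differentiated and undifferentiated cells and was called lower in the authors' deposited table (log2 -1.46, q = 0.0293). KIF2C, which takes microtubules apart at centromeres, was the most abundant mitotic kinesin in both groups. It had 15.3 FPKM in differentiated and 35.6 FPKM in undifferentiated cells in the authors' deposited table, the smallest change of the class (log2 -1.21, SE 0.262, q = 6.54e-05). Neither KIF18B nor KIF2C was called apart from the median gene (adjusted p = 0.421 and 0.150 on the authors' errors).

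The 4 kinesins of cytokinesis followed. KIF20A, which brings the chromosomal passenger complex to the midzone, had 9.06 FPKM in differentiated and 29.4 FPKM in undifferentiated cells in the authors' deposited table. The log2 fold change of -1.70 (SE 0.340, q = 1.49e-05 in the authors' deposited table) was the most negative of all 37, and 3.46% of all genes had a lower one. KIF20A shares its listed locus at chromosome 5, 137514417 to 137549032 (hg19), with CDC23, so fragments of that pair are uncertain. KIF20B had 6.03 FPKM in differentiated and 17.4 FPKM in undifferentiated cells in the authors' deposited table (log2 -1.52, q = 3.06e-07). KIF14, which recruits citron kinase to the midbody, had 5.08 FPKM in differentiated and 13.9 FPKM in undifferentiated cells in the authors' deposited table (log2 -1.45, q = 2.63e-06). KIF23, the motor of the centralspindlin complex, had 7.82 FPKM in differentiated and 20.5 FPKM in undifferentiated cells in the authors' deposited table (log2 -1.39, q = 0.000154). KIF20A, KIF20B and KIF14 lay below the median gene, while KIF23 did not (adjusted p = 0.108 on the authors' errors).

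**Figure D1:**
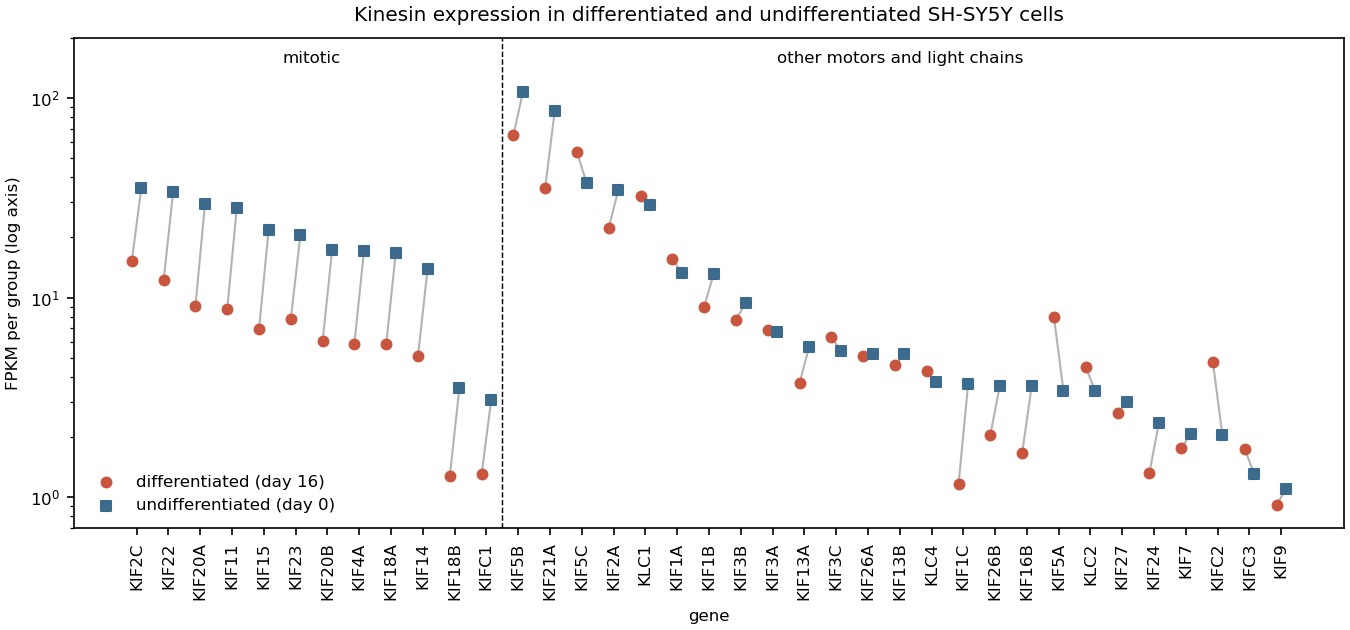
FPKM of the 37 kinesin genes at 1 FPKM or more, on a log axis, with differentiated cells as circles and undifferentiated cells as squares, 1 value per group. In the mitotic class, left of the dashed line, each circle lies below its square, while the other members run in both directions, with KIF5A and KIFC2 the steepest rises.

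Proliferation markers moved with the mitotic kinesins. The authors' deposited table called all 5 markers on the list lower, where 31.4% of all tested genes were. Below the median gene were 3 of 5, where 4.56% of all genes were, CDK1 and PCNA not being called there. The list had a summed level of 178 FPKM in differentiated and 484 FPKM in undifferentiated cells. MKI67 had 6.97 FPKM in differentiated and 23.6 FPKM in undifferentiated cells (log2 -1.76 in the authors' deposited table). In bulk RNA, fewer dividing cells and less kinesin RNA per dividing cell cannot be told apart.

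Mitotic promoters are known to carry a hexamer called the cell cycle genes homology region, near a CCAAT box bound by the factor NF-Y. Promoter sequences from RefSeq (GRCh38.p14) ran from 250 bases before to 50 after a transcription start. They were matched for 36 of the 46 genes, 12 mitotic and 24 others. The genes without a sequence all belonged to the comparison class: KIF5A, KIFC2, KIFC3, KIF13B, KIF19, KIF21B, KIF26B, KIF27, KLC2 and KLC4. The hexamer TTTGAA, read on both strands, occurred in 9 of 12 mitotic genes and in 2 of 24 others (KIF5B and KIF4B), against 18.2% of all 27305 genes of the promoter table. CCAAT, also on both strands, occurred in 10 of 12 mitotic genes and in 8 of 24 others, against 39.7% of all genes. Both stood in 1 window in 8 of 12 mitotic genes and in 2 of 24 others, against 7.26% of all genes. There were 13 windows for the 12 mitotic genes and 32 for the 24 others, since some genes have several starts. A second known form of the hexamer, TTTAAA, which reads the same on both strands, was added after the matches were seen. It occurred in 4 mitotic genes, 1 other gene and 14.5% of all genes, and 11 of 12 mitotic genes, 3 of 24 others and 27.9% of all genes had either form. KIF22 was the mitotic gene with neither. A match describes letters in a window and is not a binding site. The stretches of 120 bases just before the start are shown for 6 mitotic kinesins whose matches lie there, and for 2 other kinesins without one. Each is written 5′ to 3′ on the strand of its gene. Capitals mark a match to either form of the hexamer or to the CCAAT box. A match on the opposite strand reads TTCAAA for the hexamer. For the box it reads ATTGG.
KIF11 (chr10:92593010-92593129, + strand): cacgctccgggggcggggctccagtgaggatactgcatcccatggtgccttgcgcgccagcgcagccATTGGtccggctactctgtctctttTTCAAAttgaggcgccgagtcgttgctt
KIF4A (chrX:70289984-70290103, + strand): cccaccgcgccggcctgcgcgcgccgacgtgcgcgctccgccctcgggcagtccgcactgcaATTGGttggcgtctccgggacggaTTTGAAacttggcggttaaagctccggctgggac
KIF15 (chr3:44761674-44761793, + strand): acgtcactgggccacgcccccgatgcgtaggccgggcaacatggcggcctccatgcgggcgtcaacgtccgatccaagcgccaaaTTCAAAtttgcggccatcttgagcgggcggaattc
KIF18A (chr11:28108157-28108276, - strand): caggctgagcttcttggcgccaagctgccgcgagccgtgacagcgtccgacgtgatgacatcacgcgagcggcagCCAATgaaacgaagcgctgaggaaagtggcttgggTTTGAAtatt
KIF23 (chr15:69414229-69414348, + strand): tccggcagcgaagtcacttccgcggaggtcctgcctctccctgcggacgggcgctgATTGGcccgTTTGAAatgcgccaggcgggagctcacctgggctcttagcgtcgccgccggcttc
KIF20A (chr5:138178992-138179111, + strand): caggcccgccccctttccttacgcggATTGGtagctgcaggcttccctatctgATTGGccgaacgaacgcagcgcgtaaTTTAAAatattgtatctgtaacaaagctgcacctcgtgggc
KIF21A (chr12:39443121-39443240, - strand): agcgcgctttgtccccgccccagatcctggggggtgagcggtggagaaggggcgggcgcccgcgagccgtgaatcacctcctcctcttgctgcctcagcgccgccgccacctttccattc
KIF3A (chr5:132737547-132737666, - strand): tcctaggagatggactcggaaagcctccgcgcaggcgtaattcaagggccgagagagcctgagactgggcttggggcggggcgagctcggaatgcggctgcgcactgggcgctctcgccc
In KIF11 the CCAAT box begins 53 bases and the hexamer 28 bases before the start, and in KIF4A they begin 58 and 34 bases before it. KIF18A has them 45 and 10 bases before the start. KIF20A has 2 CCAAT boxes, 94 and 67 bases before the start, and TTTAAA at 41 bases.

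**Figure D2:**
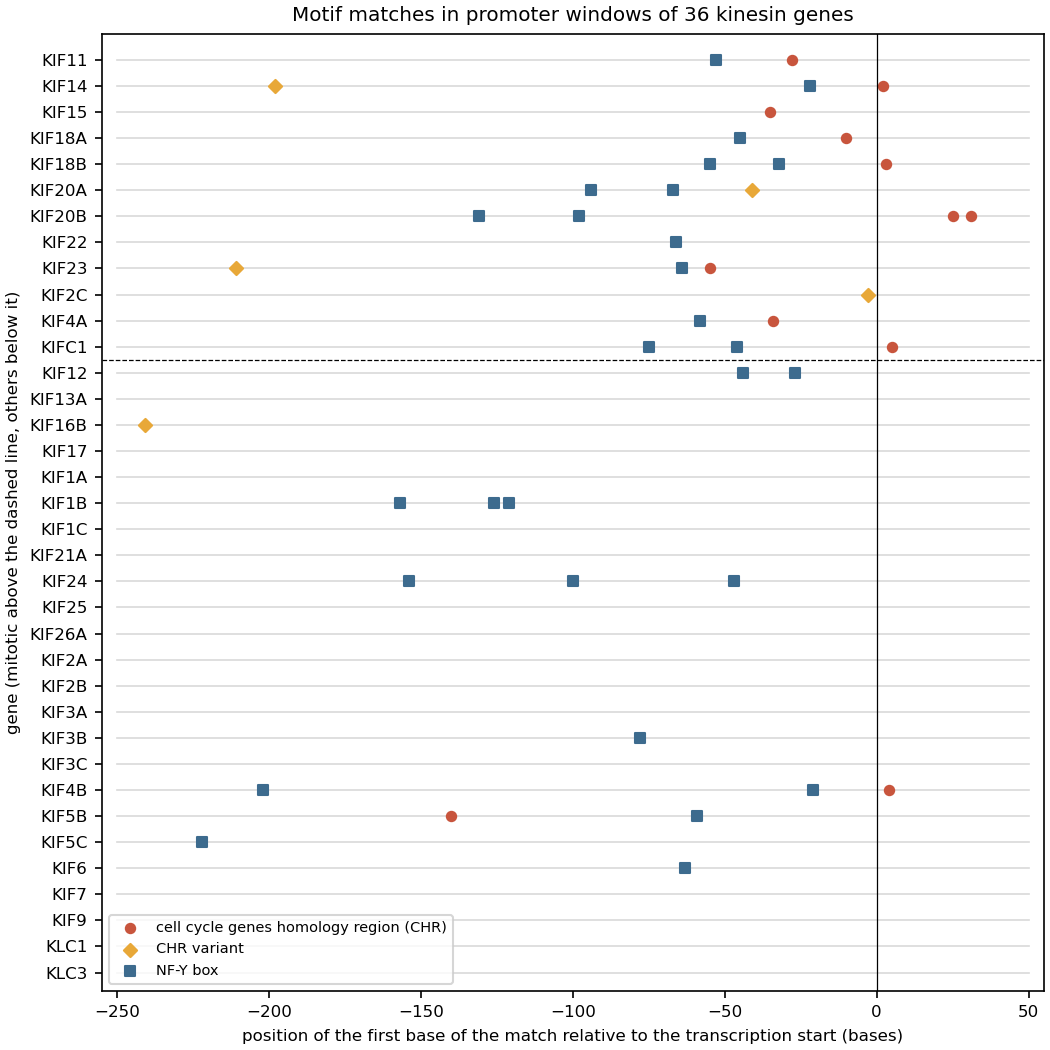
Position of each motif match, in bases from the transcription start at the solid line, in the promoter windows of 36 kinesin genes, with alternative windows of a gene laid over each other on 1 row. Circles are the hexamer, diamonds its second form and squares the CCAAT box (NF-Y box). In the mitotic genes above the dashed line most matches lie from 100 bases before to 50 after the start, and most other genes have no match.

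The comparison class moved in both directions. Of its 25 genes at 1 FPKM or more, the authors' deposited table called 3 higher (KIF5A, KIF5C and KIFC2), 4 lower (KIF5B, KIF1C, KIF16B and KIF21A) and 18 neither, where 2.20% of all tested genes were called higher and 31.4% lower. Relative to the median gene, 6 lay above (KIF5A, KIF5C, KIFC2, KIF1A, KIF3C and KLC1), and KIF21A lay below, where 5.64% of all genes lay above and 4.56% below. The median log2 fold change was -0.19, above the -0.62 of all genes, and took the value 0.33 after quantile normalization. By the scaling in the authors' deposited table the mitotic median was 1.31 log2 units lower than the -0.19 of this class, a difference that went untested because members are not replicates. By the scaling of the groups in the authors' deposited table, 10 of the 25 fold changes were positive, and with the median gene set to 0 it was 18. The mitotic genes had shorter transcripts, with a median of 3970 bases for the longest coding transcript in GENCODE, against 6103 for the others and 3515 over all genes with a length.

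**Figure D3:**
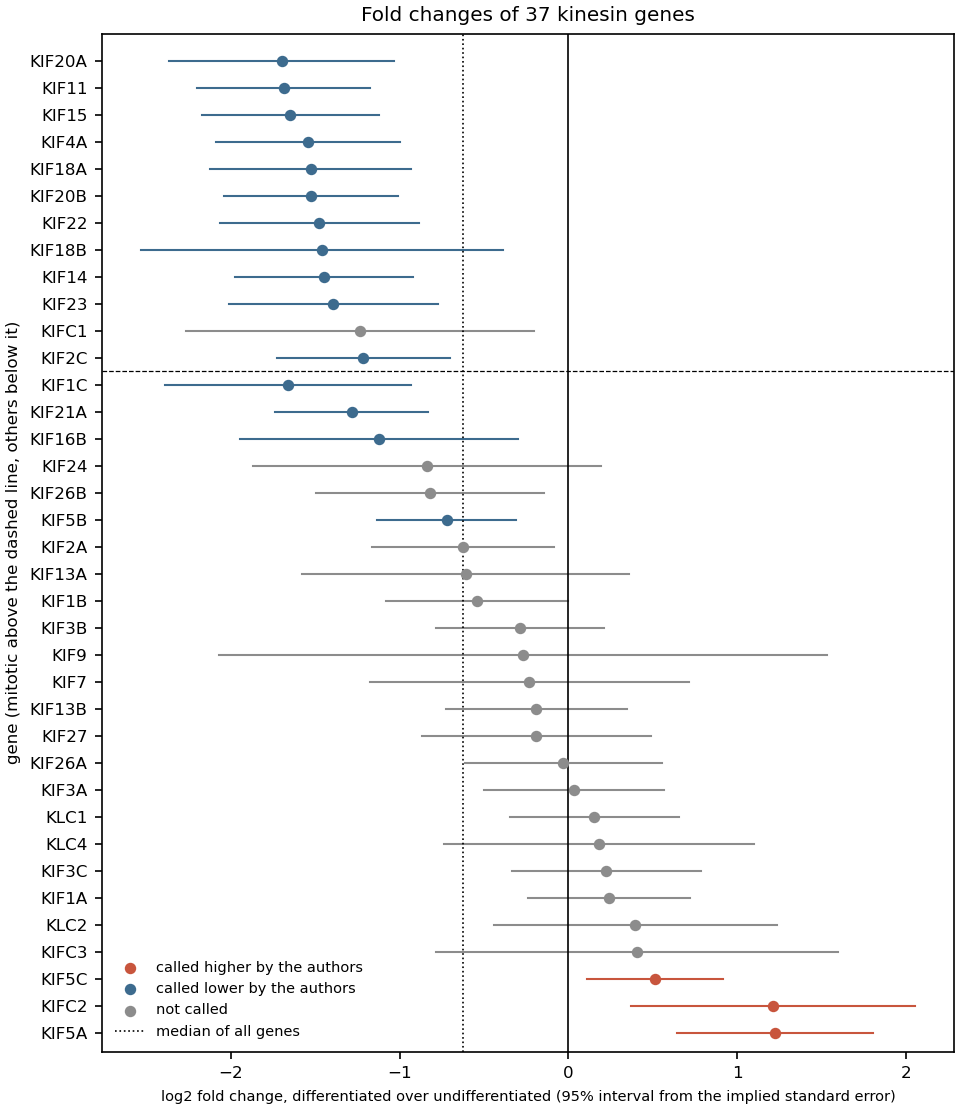
Log2 fold change of each of the 37 kinesin genes, with a 95% interval from the implied standard error, coloured by the authors' call. The dotted line is the median of all genes. The mitotic fold changes all lie left of it, and KIF5A, KIFC2 and KIF5C lie right of 0 with intervals that exclude it.

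Conventional kinesin, or kinesin-1, is a tetramer of heavy chains, encoded by KIF5A, KIF5B and KIF5C, and light chains that bind cargo. KIF5B is made in most cell types, and KIF5A and KIF5C mainly in neurons. KIF5A, at chromosome 12, 57943847 to 57978554 (hg19), had 7.98 FPKM in differentiated and 3.41 FPKM in undifferentiated cells. It rose by a log2 fold change of 1.23 (SE 0.297, q = 0.000443) in the authors' deposited table, which exceeded that of 98.0% of all genes. KIF5C, at chromosome 2, 149632792 to 149883273 (hg19), had 53.5 FPKM in differentiated and 37.5 FPKM in undifferentiated cells (log2 0.51, SE 0.205, q = 0.0429 in the authors' deposited table). KIF5B, at chromosome 10, 32297938 to 32345371 (hg19), had 65.1 FPKM in differentiated and 107 FPKM in undifferentiated cells, the highest level of any kinesin in both groups. It was called lower in the authors' deposited table (log2 -0.72, SE 0.210, q = 0.00422), but was close to the median gene (adjusted p = 0.887), and its sign turned with equal summed FPKM of all rows (0.061) and with quantile normalization (0.0035).

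The make-up of the heavy chains therefore differed between the groups, and a share within a group does not depend on the scaling between groups. By summed FPKM, KIF5B made up 51.4% of heavy chain expression in differentiated and 72.4% in undifferentiated cells. KIF5C made up 42.3% in differentiated and 25.3% in undifferentiated cells, and KIF5A 6.30% and 2.30%. The log2 fold change of KIF5C exceeded that of KIF5B by 1.23 (95% interval 0.66 to 1.81), and that of KIF5A exceeded it by 1.95 (1.23 to 2.66). Between KIF5A and KIF5C the difference was 0.71 (0.01 to 1.42), an interval that included 0 once 1 FPKM was added to each value.

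The light chains KLC1, KLC2 and KLC4 were not called. KLC1, the most abundant, had 32.4 FPKM in differentiated and 29.1 FPKM in undifferentiated cells (log2 0.16, q = 0.681 in the authors' deposited table). It was above the median gene (adjusted p = 0.0276 on the authors' errors). It shares its listed locus with XRCC3, so its value is uncertain. KLC2 had 4.47 and 3.40 FPKM and KLC4 4.26 and 3.75 FPKM in differentiated and undifferentiated cells. The summed light chain FPKM came to 32.9% of that of the heavy chains in differentiated and 24.5% in undifferentiated cells.

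**Figure D4:**
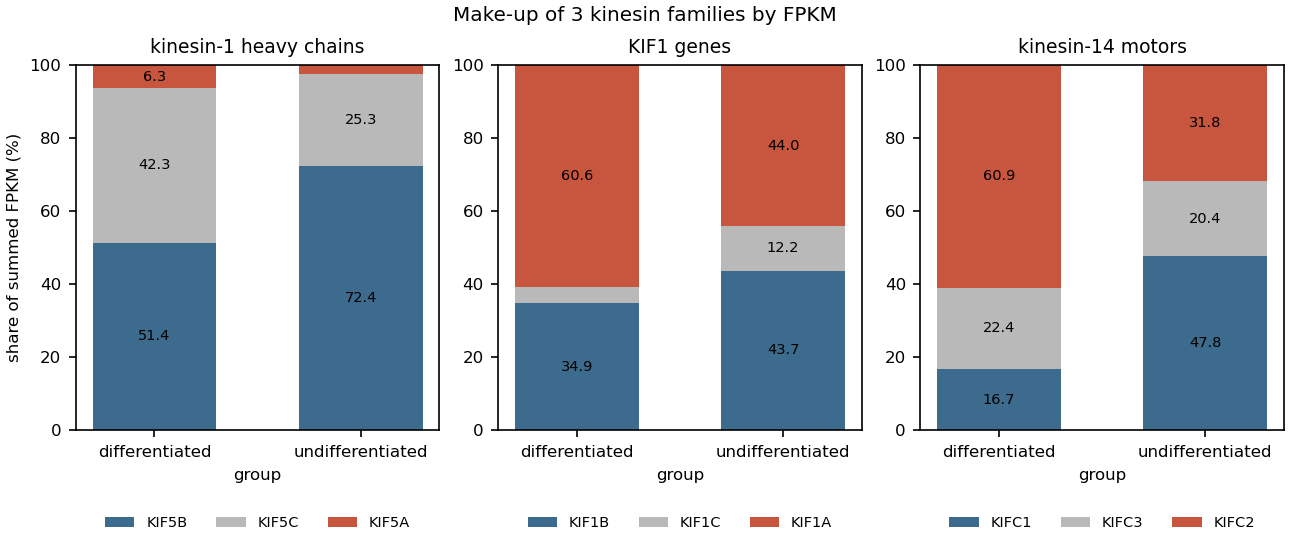
Share of the summed FPKM, in percent, held by each gene of 3 kinesin families, with differentiated cells left of undifferentiated cells in each panel. In differentiated cells KIF5B, KIF1B, KIF1C and KIFC1 hold smaller shares and KIF5A, KIF5C, KIF1A and KIFC2 larger ones. KIF25 was listed at 0 in both groups and is not visible. The values of KIFC1, on a haplotype contig, and of KIFC2, which shares its locus with FOXH1, are uncertain.

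Kinesin-2 works as a trimer of KIF3A, with KIF3B or KIF3C, and the adaptor KIFAP3, and moves cargo in cilia and axons. None of these genes was called. KIF3A had 6.86 FPKM in differentiated and 6.70 FPKM in undifferentiated cells, with a log2 fold change of 0.03 (95% interval -0.50 to 0.57). KIF3B had 7.71 and 9.40 FPKM and KIF3C 6.34 and 5.42 FPKM in differentiated and undifferentiated cells. KIF3C lay above the median gene (adjusted p = 0.0336 on the authors' errors). The 3 pairwise differences between them had intervals that included 0, such as -0.24 to 1.26 for KIF3C over KIF3B. KIFAP3 had 11.97 FPKM in differentiated and 10.8 FPKM in undifferentiated cells (q = 0.751 in the authors' deposited table).

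Kinesin-3 motors carry vesicles and organelles, apart from the mitotic KIF14. KIF1A, the carrier of synaptic vesicle precursors, had 15.7 FPKM in differentiated and 13.2 FPKM in undifferentiated cells (log2 0.24, SE 0.245, q = 0.473 in the authors' deposited table). It was above the median gene (adjusted p = 0.00755 on the authors' errors). KIF1B, which moves mitochondria and vesicles, had 9.01 and 13.1 FPKM in differentiated and undifferentiated cells (log2 -0.54, q = 0.119 in the authors' deposited table). KIF1C, a vesicle motor made in many tissues, had 1.16 FPKM in differentiated and 3.67 FPKM in undifferentiated cells in the authors' deposited table. Its fall of -1.66 (SE 0.372, q = 0.000124) lay within the range of the mitotic class, and it just missed the call below the median gene (adjusted p = 0.0502 on the authors' errors). The fold change of KIF1A exceeded that of KIF1C by 1.91 (95% interval 1.03 to 2.78) and that of KIF14 by 1.69 (0.98 to 2.41). KIF1A thus made up 60.6% of the summed FPKM of the KIF1 genes in differentiated and 44.0% in undifferentiated cells.

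The remaining kinesin-3 genes were less abundant. KIF16B, which moves early endosomes, was called lower in the authors' deposited table, with 1.66 FPKM in differentiated and 3.61 FPKM in undifferentiated cells (log2 -1.12, SE 0.421, q = 0.0299). Its distance from the median gene was not called (adjusted p = 0.592 on the authors' errors). KIF13A had 3.72 and 5.67 FPKM and KIF13B 4.57 and 5.21 FPKM in differentiated and undifferentiated cells. Neither was called in the authors' deposited table (q of 0.360 and 0.636).

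KIF21A was the 1 gene outside the mitotic class called below the median gene. It is a kinesin-4 that slows microtubule growth at the cell cortex and lies at chromosome 12, 39687030 to 39837192 (hg19). It had 35.5 FPKM in differentiated and 86.3 FPKM in undifferentiated cells (log2 -1.28, SE 0.232, q = 1.23e-06 in the authors' deposited table), rank 3 and rank 2 in level among the 46 genes. The call below the median gene (adjusted p = 0.0445 on the authors' errors) was lost with equal summed FPKM. Its relatives KIF7 and KIF27, known for Hedgehog signalling and cilia, were not called. KIF7 had 1.76 and 2.06 FPKM and KIF27 2.63 and 3.00 FPKM in differentiated and undifferentiated cells. KIF27 exceeded KIF21A in log2 fold change by 1.09 (95% interval 0.28 to 1.91).

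Among the kinesins that shorten microtubules, KIF2A, which trims neurites, had the fold change of the median gene to 2 decimals. It had 22.4 FPKM in differentiated and 34.5 FPKM in undifferentiated cells (log2 -0.62, SE 0.276, q = 0.0706 in the authors' deposited table). KIF24, of the centriole, had 1.31 and 2.35 FPKM in differentiated and undifferentiated cells (q = 0.220 in the authors' deposited table). The difference in log2 fold change between KIF2A and KIF2C, its relative in the mitotic class, had an interval that included 0.

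KIFC2, a kinesin-14 described in mouse brain, rose in the authors' deposited table, with 4.73 FPKM in differentiated and 2.04 FPKM in undifferentiated cells (log2 1.21, SE 0.429, q = 0.0201). It lies at chromosome 8, 145691738 to 145701718 (hg19), and shares that locus with FOXH1, so fragments of the pair are uncertain. Its log2 fold change exceeded that of KIFC1, of the same family, by 2.45 (95% interval 1.12 to 3.78). KIFC3 had 1.74 and 1.31 FPKM in differentiated and undifferentiated cells and was not called. Of the summed kinesin-14 FPKM, KIFC2 held 60.9% in differentiated and 31.8% in undifferentiated cells, and KIFC1 16.7% and 47.8%. These shares, and the difference between KIFC2 and KIFC1, also rest on the KIFC1 row, whose haplotype contig makes its value uncertain. KIF26A, an atypical kinesin, had 5.12 and 5.23 FPKM in differentiated and undifferentiated cells, KIF26B 2.05 and 3.62 FPKM (q = 0.0556 in the authors' deposited table), and KIF9 0.913 and 1.10 FPKM.

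Over all 42 motor genes, the summed FPKM was 348 in differentiated and 598 in undifferentiated cells. Mitotic kinesins contributed 85.5 FPKM, or 24.6%, in differentiated cells and 241 FPKM, or 40.3%, in undifferentiated cells. Mitotic motor RNA was thus still present on day 16. KIF5C alone held 15.4% of motor FPKM in differentiated and 6.27% in undifferentiated cells. Of 47 pairs of genes within a subfamily, 17 had a difference in fold change whose interval excluded 0, without adjustment for the number of pairs. With 1 FPKM added to each value it was 15. Many pairs share a gene, and no such count is given for pairs of other genes.

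Partners of the motors were read from lists that share no gene with the kinesins. Of 28 spindle partners, the authors' deposited table called 28 lower, where 31.4% of all tested genes were, and 12 were below the median gene, where 4.56% of all genes were, with a median log2 fold change of -1.39. The largest falls were those of the spindle pole gene ASPM (-1.98), BIRC5 of the chromosomal passenger complex (-1.79), the mitotic kinase gene PLK1 (-1.79) and the checkpoint kinase gene BUB1B (-1.79), all in the authors' deposited table. CENPE, a kinetochore kinesin whose symbol the naming rule does not cover, had 4.32 FPKM in differentiated and 13.1 FPKM in undifferentiated cells (log2 -1.60, q = 4.17e-08 in the authors' deposited table). STARD9, another kinesin outside the rule, had 0.797 and 1.08 FPKM in differentiated and undifferentiated cells and was not called.

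Cargo adaptors were called in both directions by the authors. Of 23 at 1 FPKM or more, the authors' deposited table called 5 higher and 4 lower, where 2.20% of all tested genes were higher and 31.4% lower. Relative to the median gene 6 were called above, where 5.64% of all genes were, and none below, where 4.56% were. The list median of the log2 fold changes was -0.03, and 19 of the 23 lay over the median gene. FEZ1, a kinesin-1 adaptor of axons, had 13.3 FPKM in differentiated and 5.70 FPKM in undifferentiated cells (log2 1.23, q = 0.00563 in the authors' deposited table). The calsyntenin gene CLSTN2 had 2.81 and 1.35 FPKM in differentiated and undifferentiated cells (log2 1.06, q = 0.0266 in the authors' deposited table). The mitochondrial adaptor gene TRAK2 was called lower, with 4.48 and 8.97 FPKM in differentiated and undifferentiated cells (q = 0.00368 in the authors' deposited table). It was not called apart from the median gene (adjusted p = 0.525 on the authors' errors). GRIP1, a kinesin-1 adaptor of dendrites with a mean under 1 FPKM, had 1.57 and 0.164 FPKM in differentiated and undifferentiated cells (log2 3.26, q = 0.000188 in the authors' deposited table). KIFBP, listed as KIAA1279, which binds KIF1 and mitotic motors, had 8.52 and 9.41 FPKM in differentiated and undifferentiated cells (q = 0.759 in the authors' deposited table).

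**Figure D5:**
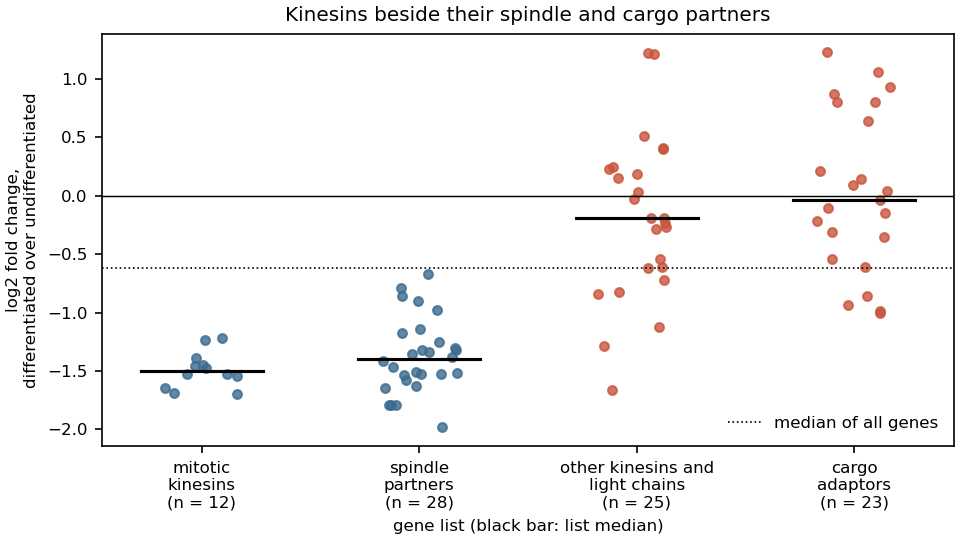
Log2 fold change of each gene at 1 FPKM or more in the mitotic kinesins, their spindle partners, the other kinesins with light chains, and the cargo adaptors. The bar is the list median and the dotted line the median of all genes. List medians run from -1.50 and -1.39 for the mitotic lists to -0.19 and -0.03 for the other lists.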

How the data were processed

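RNA from 4 libraries, 2 differentiated and 2 undifferentiated, was depleted of ribosomal RNA and sequenced on an Illumina instrument, per the labels' protocols. The submitted files rest on hg19, TopHat2 2.0.8 and Cufflinks 2.0.2, per the submitters' processing notes. The authors deposited 1 FPKM for each gene in each group. Beside it, per the file headers, stand the authors' log2 fold change, p-value, q-value and a statistic, whose sign is opposite to that of the fold change. How libraries were combined and scaled is not given in the sources used here. Depth is unknown, so no counting interval is given, and no value per library means that no test over libraries could be run. Locus starts were raised by 1, since 2043 loci matched their gene length that way and 268 as listed.

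The 28 rows with a date for a name were left out of the tests. Implied standard errors inherit the authors' variance model. A gene shares a locus where the table lists the same or an overlapping region for another row, which held for 7 of the 37 genes, and the counting is not stated to use strand. All 37 were named, the mitotic genes and called genes with fold changes, and from each partner list the 4 called genes of largest fold change, with CENPE, STARD9, KIFAP3 and KIFBP. Each list was described by counts and its median. The members, lists and motifs were chosen with earlier results of these data known. Transcript lengths came from GENCODE release 29 and promoters from RefSeq, matched by symbol. Scripts ran under Python 3.11.15 with pandas 2.3.3, numpy 2.4.6, matplotlib 3.10.9 and scipy 1.17.1. Alternatives covered filters, thresholds, scaling, the pseudocount and the members left out.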

Additional observations from a re-analysis of the deposited data

How the results depend on the processing

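The 12 mitotic fold changes were negative under every scaling tried. The lower mitotic calls in the authors' deposited table numbered 11, with 10 at a threshold of 0.01 and 12 at 0.1. Where a mean of 5 FPKM was required, the 10 mitotic genes that remained were all called lower. Counts below the median gene depended more on the choices: 3 mitotic genes, against 8, with a threshold of 0.01 and with equal summed FPKM of all rows. The mitotic count was 6 with equal summed FPKM without small RNAs, and 6 when a mean of 5 FPKM was required. Outside the mitotic class the count below was 1, and became 0 when a mean of 5 FPKM was required, with a threshold of 0.01 or either equal sum, and 2 with no filter or a threshold of 0.1. There the authors' higher calls went to 1 with a threshold of 0.01, and the lower calls to 2 when a mean of 5 FPKM was required, where fewer genes remain. No share of all genes is given for these other filters, thresholds and scalings, so the counts cannot be set against one. Quantile normalization gave medians of -0.90 for mitotic and 0.33 for other genes. KIF5B turned to 0.061 with equal summed FPKM of all rows and to 0.0035 with quantile normalization. The mitotic share became 26.2% in differentiated and 45.2% in undifferentiated cells without KIF2C and KIF5B, and 21.9% and 38.0% with light chains. The interval for KIF5A over KIF5C, and that for KIF1B over KIF1C, included 0 after adding 1 FPKM. No paired analysis was possible because the table gives 1 value per group, and for the same reason no replicate could be left out. Neither depth nor spread between libraries can be read from these values.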
